A study of Mus musculus with 12 samples.

Results

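Per1, Per2 and Sik1 encode the period proteins 1 and 2 of the circadian clock and salt inducible kinase 1. They were taken as the 3 probe sets, 1 for each gene, that carry these symbols in the authors' deposited table of changes after irradiation, in which 433 probe sets with values name 325 genes. Probe sets outside it carry no gene names here, so any further probe set of these genes could not be examined. Arrays profiled KSL cells of the bone marrow, a sorted fraction that carries Kit and Sca-1, lacks lineage markers and contains the blood stem cells and the earliest progenitors. The 12 arrays comprise 6 of cells from C57Bl/6 mice given 550 cGy from a cesium source and 6 of cells from non-irradiated C57Bl/6 mice (0 cGy), and the labels give an age of 10 weeks for all mice. Cells were isolated at day 14 after irradiation, per the design text of the series. The labels name no time of day for the sorting, and they do not say whether arrays came from separate mice or from pools, so errors and p-values cover only the spread among these arrays, part of which may be technical.

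The period proteins are the repressor arm of the clock. CLOCK and BMAL1 activate Per1 and Per2 through E-boxes, and the period proteins, with the cryptochromes, then enter the nucleus and hold CLOCK and BMAL1 in check until they are degraded, which closes a daily cycle. Per1, Per2 and Sik1 are also switched on quickly by cyclic AMP and calcium signals through the transcription factor CREB and its CRTC coactivators, which bind cyclic AMP response elements (CREs), and Per1 and Per2 respond to glucocorticoids as well. SIK1 is a kinase of the AMPK family that phosphorylates CRTC proteins and so keeps them out of the nucleus, a feedback on CREB signalling that in mouse brain also limits how far light shifts the clock.

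Per1 is the one member with promoter windows in the RefSeq table used (GRCm38.p6), which did not list Per2 or Sik1. Its windows run from 250 bases before to 50 bases after each of 2 start sites that lie 1203 bases apart on the plus strand. They are shown because these genes are known for responses through CREs and E-boxes, and capitals mark the matches.

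Per1 upstream start, chr11:69098699-69098998, plus strand: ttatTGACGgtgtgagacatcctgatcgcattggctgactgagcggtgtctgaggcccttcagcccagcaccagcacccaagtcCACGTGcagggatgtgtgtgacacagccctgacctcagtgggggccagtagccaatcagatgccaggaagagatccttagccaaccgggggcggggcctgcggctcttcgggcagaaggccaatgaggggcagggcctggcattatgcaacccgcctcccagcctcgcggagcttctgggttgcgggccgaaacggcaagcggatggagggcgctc
Per1 downstream start, chr11:69099902-69100201, plus strand: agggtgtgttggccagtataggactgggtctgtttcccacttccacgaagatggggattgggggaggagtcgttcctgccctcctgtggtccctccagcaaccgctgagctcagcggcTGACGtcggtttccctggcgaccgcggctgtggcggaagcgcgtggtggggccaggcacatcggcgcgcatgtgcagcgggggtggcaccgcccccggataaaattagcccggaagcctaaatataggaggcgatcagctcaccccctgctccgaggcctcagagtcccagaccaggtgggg

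On both strands, 4 motifs were searched: the full CRE TGACGTCA, the CRE half-site TGACG, which lies within it, the E-box CACGTG and its variant CACGTT. The upstream window held 1 half-site, starting 246 bases before the start site, and 1 CACGTG E-box, starting 166 bases before it. The downstream window held 1 half-site, starting 132 bases before the start site. Neither window held the full CRE or the CACGTT variant. Of all 32851 windows in the table, 20.8% held the half-site, 7.15% the CACGTG E-box, 1.79% the full CRE and 4.68% the CACGTT variant. A match describes letters in the reference and is not evidence of binding.

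**Figure D1:**
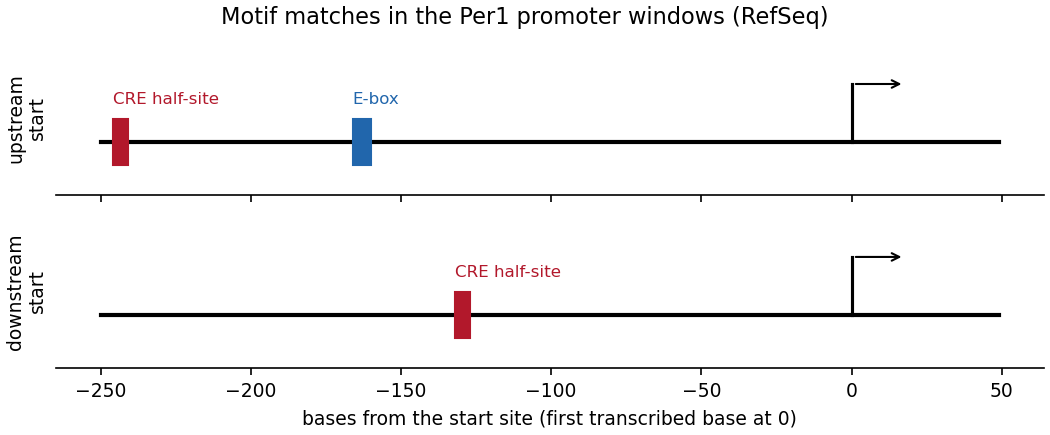
Position of motif matches in both Per1 promoter windows, in bases from the RefSeq start site (arrow), from 250 bases before to 50 after it. Red boxes are CRE half-sites, starting 246 and 132 bases before their start sites, and the blue box is the E-box of the upstream window, starting 166 bases before the start site.

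All 3 genes had lower levels in irradiated than in control KSL cells, by 2.35-fold for Per1, 2.30-fold for Sik1 and 2.00-fold for Per2. The size of the difference depended on the replicates for Per1 and Sik1: both were more than 4-fold lower in irradiated than in control arrays among replicates 1 to 3, and about 1.3-fold lower among replicates 4 to 6. Between the replicate sets, Per1 differed (replicates 1 to 3 minus 4 to 6, log2) by -1.46 among irradiated arrays and by 0.24 among control arrays, and Sik1 by -0.54 among irradiated arrays and by 1.16 among control arrays. For Per2 no such difference was detected, and its arrays scattered widely. In a sorted population, fewer cells that express a gene and less of its RNA per cell cannot be told apart.

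The members were chosen on the contrast of irradiated with control arrays, so their differences in it are a description. The authors' deposited table gives ratios of 550 cGy over 0 cGy of 0.426 for Per1, 0.4997 for Per2 and 0.435 for Sik1, with unadjusted p of 0.00524, 0.0120 and 0.00278, and only probe sets changed 2-fold or more with an unadjusted p under 0.05 are in it. Per2 lay just inside that boundary at 2.001-fold lower, with Gramd1a at 2.0005-fold as the only lower probe set closer to it on this side. The nearest probe set outside, which carries no name here, was 1.999-fold lower. In limma, which moderates each probe set's variance with that of all others, all 3 members were called lower at a Benjamini-Hochberg adjusted p under 0.05, as were 5.47% of the 22626 probe sets, and nothing is read from this count.

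These calls differed in how many settings they held. Sik1 was called in 20 of 21 alternatives and Per1 in 18 of 21, and both missed the threshold in replicates 4 to 6 alone. Per1 also missed it without irradiated replicate 1 or control replicate 1, where the count of members called was 1. Per2 was called in 8 of 20 alternatives and was missed after quantile normalization, within either replicate set, and without irradiated replicate 1, 2, 4 or 6 or control replicate 1, 3, 4, 5 or 6, at log2 changes no smaller than 0.78 in size.

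**Figure D2:**
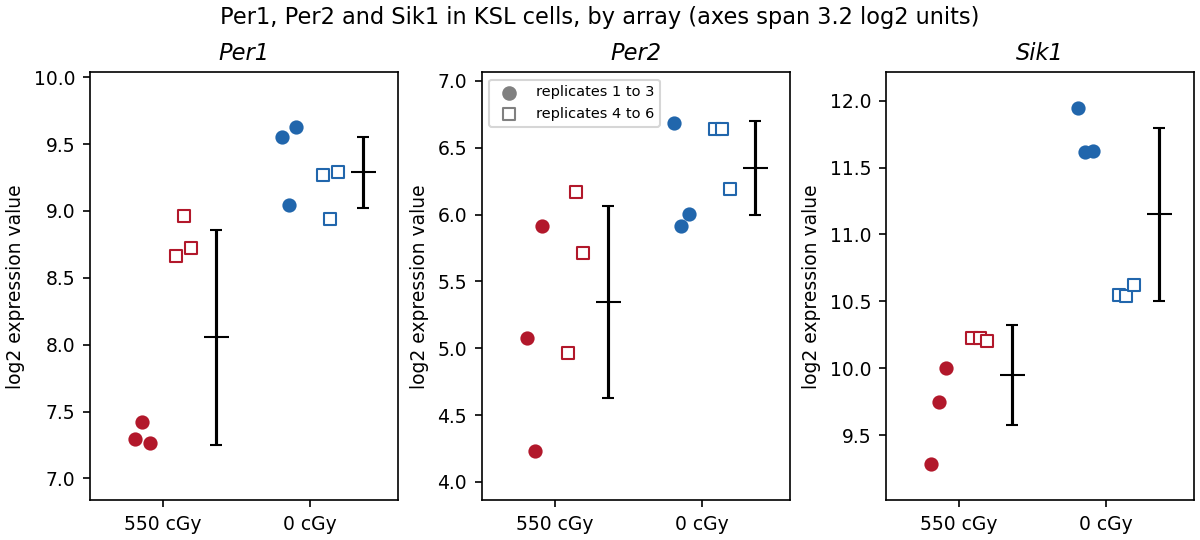
Log2 expression values of Per1, Per2 and Sik1 in each array, with 550 cGy arrays left and 0 cGy arrays right, filled circles for replicates 1 to 3, open squares for replicates 4 to 6, and the mean ± SD of each group (n = 6) as a bar. The 6 irradiated Sik1 values lie below all control values, while the Per1 and Per2 groups overlap, and the circles and squares stand apart in irradiated Per1 and in both groups of Sik1.

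Per1 had log2 values of 7.30, 7.42 and 7.27 in irradiated replicates 1 to 3 and of 8.66, 8.96 and 8.73 in irradiated replicates 4 to 6. In control arrays the values were 9.55, 9.05 and 9.62 for replicates 1 to 3 and 9.27, 8.94 and 9.29 for replicates 4 to 6. The first 3 irradiated arrays were thus far below every other array, and irradiated replicate 5 lay above control replicate 5, the single crossing between the groups. Per1 averaged 8.06 ± 0.81 in irradiated and 9.29 ± 0.27 in control arrays (log2, SD, n = 6 each), a log2 change of -1.23 (SE 0.31). Its SD was larger among irradiated arrays.

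Sik1, the kinase of the CREB feedback, had log2 values of 9.28, 9.75 and 10.00 in irradiated replicates 1 to 3 and of 10.23, 10.23 and 10.21 in irradiated replicates 4 to 6. Control replicates 1 to 3 had 11.95, 11.62 and 11.62, and control replicates 4 to 6 had 10.55, 10.54 and 10.62. No irradiated array reached any control array, and replicates 4 to 6 lay close to each other within both groups. The means were 9.95 ± 0.38 in irradiated and 11.15 ± 0.64 in control arrays (log2, SD, n = 6 each), a log2 change of -1.20 (SE 0.27). Sik1 was the 1 member of 3 without overlap between the groups, which held for 2.80% of all probe sets in this direction.

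Per2 had log2 values of 5.08, 4.23 and 5.92 in irradiated replicates 1 to 3 and of 4.97, 6.17 and 5.71 in irradiated replicates 4 to 6. The control values were 6.68, 5.91 and 6.00 for replicates 1 to 3 and 6.64, 6.64 and 6.19 for replicates 4 to 6. Irradiated replicates 3 and 5 reached the range of the controls, and the other 4 irradiated arrays lay below it. Per2 averaged 5.34 ± 0.72 in irradiated and 6.35 ± 0.35 in control arrays (log2, SD, n = 6 each), a log2 change of -1.001 (SE 0.29). Its probe set was among the dimmest 40% of all.

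Within the replicate sets, Per1 changed by -0.38 (SE 0.16) in replicates 4 to 6 and by -2.08 (SE 0.16) in replicates 1 to 3 on the log2 scale, or 1.31-fold and 4.23-fold lower in irradiated arrays. Sik1 changed by -0.35 (SE 0.16) in replicates 4 to 6 and by -2.05 (SE 0.16) in replicates 1 to 3, or 1.28-fold and 4.14-fold lower. Per2 changed by -0.88 (SE 0.41) in replicates 4 to 6 and by -1.12 (SE 0.41) in replicates 1 to 3. For each gene the SE comes from a limma variance pooled over both groups and both sets, so it does not show the spread within a set. Sik1 had SDs of 0.012 in irradiated and 0.045 in control replicates 4 to 6, against 0.37 and 0.19 in replicates 1 to 3. Irradiated arrays stayed below control arrays within both sets for Sik1 alone of the 3, as they did for 5.34% of all probe sets. In Per1 the arrays of replicates 4 to 6 crossed by 0.02, and in Per2 those of replicates 1 to 3 crossed by 0.0043.

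The difference between the sets in the change is not the contrast of the authors' filter, and it was tested in limma over all probe sets. The sets themselves were noticed in these data, and the members were chosen with earlier results known, so the p-values do not allow for these choices. The change of Per1 in replicates 4 to 6 minus that in replicates 1 to 3 was 1.70 (95% interval 1.19 to 2.20, limma adjusted p = 0.0261), and that of Sik1 was 1.70 (1.19 to 2.21, adjusted p = 0.0261). For Per2 it was 0.25 (-1.01 to 1.51, adjusted p = 0.917). This difference was called for 2 of the 3 members and for 0.133% of all probe sets, or 30 in all. Among the 325 genes named in the authors' table it was called for 10, or 3.08%.

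The calls for Per1 and Sik1 ended when single arrays were left out, while the values did not. Without irradiated replicate 2, 4, 5 or 6 or control replicate 4, 5 or 6 both lost the call, and without irradiated replicate 1 Per1 did. The limma adjusted p was then 0.0520 to 0.101 for Per1 and 0.0520 to 0.102 for Sik1, at differences of 1.58 to 1.76 for Per1 and 1.68 to 1.73 for Sik1.

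The sets were also compared within each group of arrays. Among irradiated arrays Per1 averaged 7.33 ± 0.08 in replicates 1 to 3 and 8.78 ± 0.16 in replicates 4 to 6 (log2, SD, n = 3 each), a difference of -1.46 (SE 0.16, limma adjusted p = 0.00499). Among control arrays it averaged 9.41 ± 0.31 and 9.17 ± 0.20 in the same order, a difference of 0.24 (SE 0.16, adjusted p = 0.409). Among irradiated arrays Sik1 averaged 9.68 ± 0.37 in replicates 1 to 3 and 10.22 ± 0.01 in replicates 4 to 6, without overlap, a difference of -0.54 (SE 0.16) that missed the threshold (adjusted p = 0.133). Control replicates 1 to 3 averaged 11.73 ± 0.19 and control replicates 4 to 6 averaged 10.57 ± 0.05, a difference of 1.16 (SE 0.16, adjusted p = 0.00382). Sik1 thus had set differences of opposite sign in the groups, and whether Per1 and Sik1 differ from each other in this was not tested.

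These contrasts were called for 1.06% of all probe sets among irradiated arrays and for 8.40% among control arrays. The adjusted p of Per1 among irradiated arrays stayed between 0.00197 and 0.0317 over all 16 alternatives, and that of Sik1 among control arrays between 0.000859 and 0.0193. Per2 gave differences of -0.54 (SE 0.41, adjusted p = 0.538) among irradiated arrays and -0.29 (SE 0.41, adjusted p = 0.717) among control arrays.

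**Figure D3:**
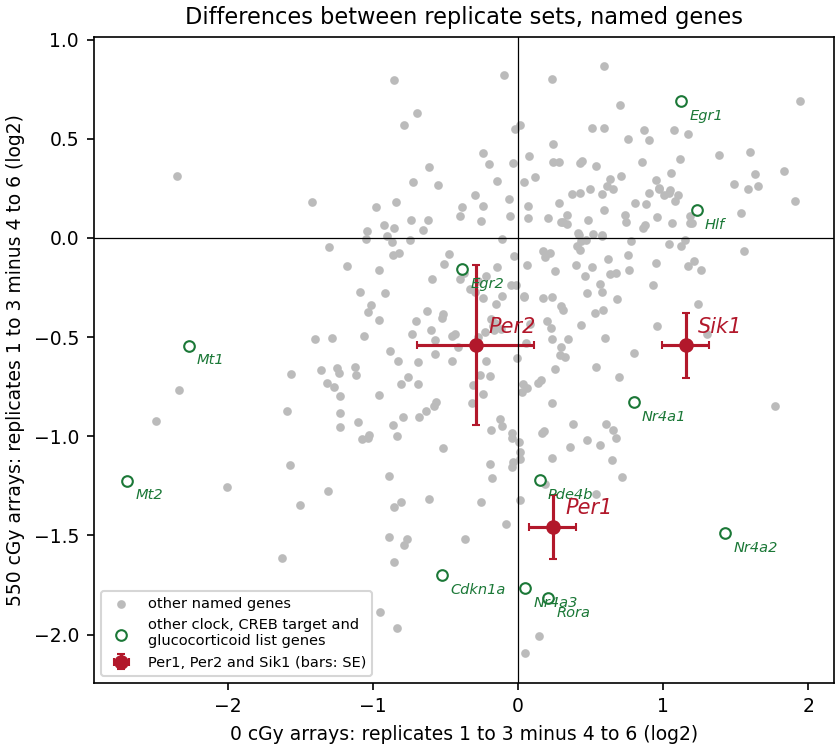
Difference between replicates 1 to 3 and replicates 4 to 6 on the log2 scale, among 0 cGy arrays (horizontal) and among 550 cGy arrays (vertical), for the 325 named genes, with SE bars for Per1, Per2 and Sik1 (red) and other clock, CREB target and glucocorticoid list genes in green. Per1 lies low near the vertical axis (0.24, -1.46), and Sik1 lies to the right (1.16, -0.54). Each SE uses a variance pooled over groups and sets.

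The authors' table held few other clock genes. Of 28 core clock and clock output genes 4 were in it, all 4 called lower: Per1, Per2, Rora and Hlf. Rora, a nuclear receptor that activates Bmal1 transcription, averaged 5.87 ± 1.03 in irradiated and 7.58 ± 0.37 in control arrays (3.27-fold lower), and Hlf, a PAR bZIP factor of clock output that is also a stem cell regulator, averaged 8.94 ± 0.14 and 10.18 ± 0.70 in the same order (2.36-fold lower; log2, SD, n = 6 each). The activators Clock and Arntl (Bmal1), the cryptochromes, Per3, Nr1d1, Nr1d2 and Dbp were not named in the table, which lists only changed probe sets, so their levels were not analysed here. Of the 325 named genes 197 were lower, 180 of them called, so a list drawn from this table is mostly made of falls.

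Rora and Hlf were compared between the sets as well. Rora differed between replicates 1 to 3 and 4 to 6 by -1.82 among irradiated arrays (limma adjusted p = 0.0132) and by 0.21 among control arrays (adjusted p = 0.673). Hlf differed by 0.14 among irradiated arrays (adjusted p = 0.660) and by 1.23 among control arrays (adjusted p = 0.00132). Their difference between the sets in the change was 2.03 for Rora and 1.09 for Hlf. Both missed the threshold, at limma adjusted p of 0.0624 for Rora and 0.0658 for Hlf.

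Of 32 CREB target genes the table held 9, each with a lower mean in irradiated arrays. Of the 9, 8 were called lower, beside 180 of the 197 lower genes of the table and 5.47% of all probe sets. Beside the 3 members these were Nr4a1 (2.87-fold lower) and Nr4a3 (3.73-fold), orphan nuclear receptors, Egr1 and Egr2 (each 2.23-fold), zinc finger transcription factors, and Pde4b (2.59-fold), a phosphodiesterase that degrades cyclic AMP. Nr4a2 averaged 9.10 ± 1.05 in irradiated and 10.38 ± 0.86 in control arrays (log2, SD, n = 6 each) and was not called. The median log2 change of the 6 genes other than the members was -1.32, beside -1.20 for the 197 named genes of the table that were lower and 0.0078 for all probe sets. A distance from the median of all probe sets was fixed by the table's 2-fold limit. The median of the 6 genes was -0.83 for replicates 4 to 6 and -2.19 for replicates 1 to 3, beside -0.84 and -1.61, in that order, for all named genes that were lower.

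Each of the 6 other CREB targets had a difference between the sets in the change that missed the threshold. The limma adjusted p was 0.0658 for Nr4a3, 0.0688 for Pde4b, 0.0913 for Nr4a2, 0.141 for Nr4a1, 0.516 for Egr1 and 0.896 for Egr2. In size the difference was 2.91 for Nr4a2, 1.81 for Nr4a3, 1.62 for Nr4a1 and 1.37 for Pde4b, beside 1.70 for Per1 and Sik1. For Egr1 it was 0.43 and for Egr2 -0.23. A difference of this size was thus not particular to Per1 and Sik1. Between replicates 1 to 3 and 4 to 6, Nr4a3 and Pde4b differed by -1.76 and -1.22 among irradiated arrays (adjusted p of 0.0104 and 0.0152) and by 0.05 and 0.15 among control arrays (adjusted p of 0.931 and 0.671). Egr1 differed by 0.69 among irradiated arrays (adjusted p = 0.0735) and by 1.12 among control arrays (adjusted p = 0.00427). Of 20 genes around the SIK and CRTC proteins Sik1 was the single one in the table, and its relatives Sik2 and Sik3 and the CRTC genes were not named there.

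**Figure D4:**
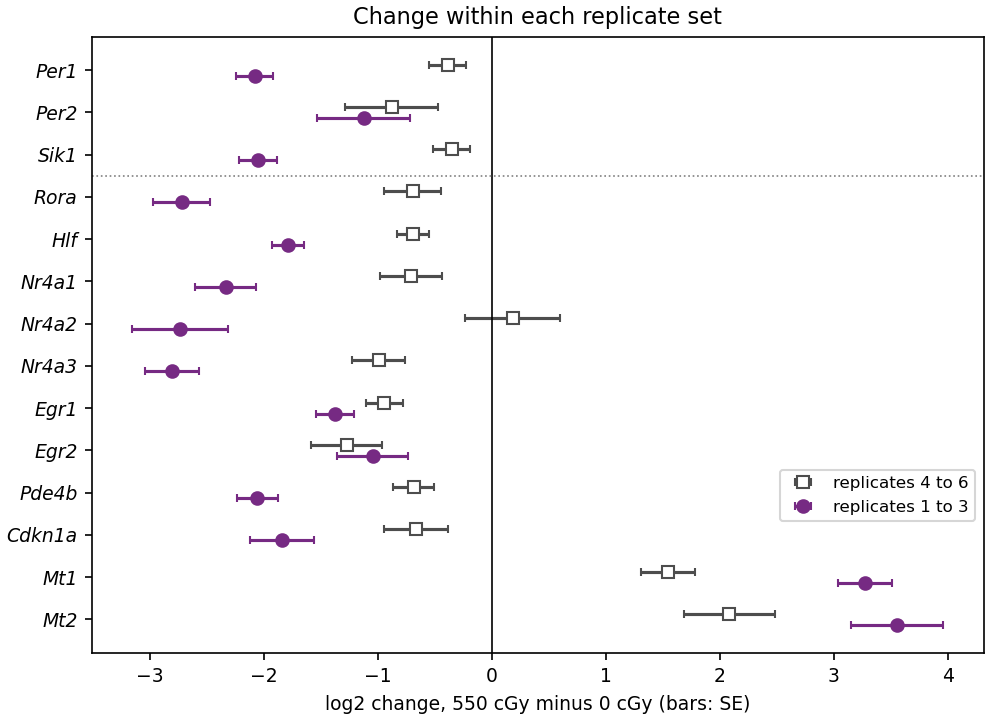
Log2 change, 550 cGy minus 0 cGy arrays, in replicates 4 to 6 (open squares) and replicates 1 to 3 (filled circles) with SE bars, for Per1, Per2 and Sik1 (above the dotted line) and the other clock, CREB target and glucocorticoid list genes of the authors' table. Per1 and Sik1 lie near -2 in replicates 1 to 3 and near -0.4 in replicates 4 to 6, whereas the Per2 intervals overlap. Each SE uses a variance pooled over groups and sets, so the bars do not show the spread within a set.

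Glucocorticoid response genes of the table went up and down. The table held 5 of 20: Per1 and Per2 were called lower, and the metallothionein genes Mt1 (5.31-fold) and Mt2 (7.06-fold), which also respond to metals, were called higher. Cdkn1a, which encodes the cell cycle inhibitor p21, averaged 9.22 ± 0.99 in irradiated and 10.47 ± 0.46 in control arrays (log2, SD, n = 6 each) and was not called. Tsc22d3, Fkbp5 and Klf9, widely used readouts of glucocorticoid signalling, were not named in the table.

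Immediate early genes respond within minutes to growth factors and to handling of cells. Of 26 such genes the table held 12, each with a lower mean after irradiation, and the other members of the list were not analysed. Of the 12, 9 were called lower, beside 180 of the 197 lower genes of the table, the 4 with the largest changes being Nr4a3, Nr4a1, Dusp2 (2.71-fold lower), a MAP kinase phosphatase, and Nr4a2, which was not called. The mean log2 level of the 12 per array lay between 8.71 and 9.21 in irradiated and between 9.84 and 11.01 in control arrays. Replicates 1 to 3 averaged 8.84 in irradiated against 10.64 in control arrays. Replicates 4 to 6 averaged 9.18 in irradiated against 9.92 in control arrays. The part of cell handling in the levels of Per1, Per2 and Sik1 was not tested.

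Of 14 erythroid markers the table held 9, all with higher means in irradiated arrays and 7 called higher, beside 113 of the 128 higher genes of the table and 5.87% of all probe sets, and the other markers were not analysed. The mean log2 level of the 9 per array lay between 8.06 and 9.62 in irradiated and between 6.42 and 7.76 in control arrays. Control replicates 1 to 3 averaged 6.49 and control replicates 4 to 6 averaged 7.57, the sets between which the Sik1 controls differed. Irradiated replicates 1 to 3 averaged 8.56 and irradiated replicates 4 to 6 averaged 9.33, the sets between which Per1 differed. The part of these markers in the results was not tested. Of the 9 KSL markers, Slamf1 was called higher and Flt3, Hlf and Procr were called lower, whereas Kit and Ly6a, which encode the markers of the sort, were not named in the table. Of 7 megakaryocyte markers 1 was called lower and 2 higher, of 7 mast cell and basophil markers 2 were called higher, of 8 stroma and endothelium markers 2 were called lower, and 0 were in the table for neutrophils, B cells, T and NK cells, and macrophages and dendritic cells.

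The 3 members were not each other's closest matches. Likeness was measured as the Pearson correlation over the 12 arrays of deviations from the group means, among 324 other named genes, as a description of arrays that share the replicate sets. A gene with several probe sets entered with its highest correlation, which favours such genes. Nearest to Per1 were Nr4a3 (r = 0.94), Plk2, a polo-like kinase (0.91), Smad7, an inhibitor of TGF-beta signalling (0.91), and Pde4b (0.90). Nearest to Sik1 were Ccrl2, an atypical chemokine receptor (0.96), Socs3, a suppressor of cytokine signalling (0.92), Nr4a2 (0.92) and Tns1, a focal adhesion protein (0.92). Smad7 and Tns1 were also among the 10 named genes for which the difference between the sets in the change was called. The deviations used for likeness still hold the differences between the sets, so this overlap is not independent of how the matches were found. Nearest to Per2 were Fam110c (0.83), Rbm39, an RNA-binding protein (0.80), Hbb-b2, a beta globin that was higher after irradiation (0.80), and Plek, a platelet kinase substrate (0.74).

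Sik1 was the gene ranked 72 for Per1, with r = 0.52, and Per2 ranked 130 for Per1, with r = 0.35. With the means of the replicate sets removed as well, the matches of Per1 dropped to 0.59 for Nr4a3, 0.39 for Plk2, 0.12 for Smad7 and 0.20 for Pde4b, and 0 of the 4 stayed among its nearest genes. For Sik1, Nr4a2 remained at 0.98 and Socs3 at 0.89, while Ccrl2 and Tns1 were at 0.76 and 0.40, and 1 of the 4 stayed among its nearest genes. For Per2, 3 of the 4 stayed, at 0.80 to 0.88 over all 4.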

How the data were processed

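The authors deposited log2 expression values for 22626 probe sets of 12 arrays. The submitters' processing notes name Partek. Its role, and how values were normalized, is not given in the sources used here. For each changed probe set, another table deposited by the authors holds the 550 cGy to 0 cGy ratio, its p-value before adjustment and, per the file headers, a signed fold and F statistic as scores. Its ratios differed from those recomputed by at most 2.36e-05 in log2. Array medians lay between 6.94 and 7.01, and precision is limited by how many arrays there are. Genes are named only there: 436 probe sets name 1 gene, 433 of them with values, and symbols were updated by gene ID (425 matched). The brightest probe set stood for a gene, except in the ranking by likeness, where a gene entered with its probe set of highest correlation.

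Probe sets were fitted with limma 3.58.1 in R 4.3.3, tested on simulated data, with Benjamini-Hochberg adjustment over all probe sets: irradiated against control, and means of group by replicate set (1 to 3, 4 to 6). The named genes were the members, the 4 genes most like each, list members in the table and up to 4 immediate early genes with the largest changes. The members, lists and sets were chosen with earlier results of these data known. Alternatives were quantile normalization, subtraction of array medians, omission of the dimmest 40%, array weights, a prior with trend and robust fitting, a replicate block, a set term, each set alone and leaving out each array. No 2 arrays held identical values. Figures used matplotlib 3.10.9.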

Additional observations from a re-analysis of the deposited data

Results flagged for a closer look

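The change of Per1 in replicates 4 to 6 minus its change in replicates 1 to 3 was 1.70 on the log2 scale, and that of Sik1 was also 1.70. Both passed the limma threshold, but Per1 lost the call in 8 of 16 alternatives and Sik1 in 7 of 16. Per2 (0.25) missed the threshold, with a 95% interval that overlapped theirs, and whether it differs from them was not tested. Among the other clock, CREB target and glucocorticoid list genes named here, control replicate 1 of Pde4b stood apart, with a log2 value of 10.70 against 10.08 to 10.19 in the other control arrays, a gap of 0.827 of the range. It was the one such array in 28 groups of 6 examined, where chance alone marks about 1 group in 20.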

How the results depend on the processing

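The log2 changes of Per1, Per2 and Sik1 kept their direction under all alternatives that gave a value. They were -2.08 for Per1 and -2.05 for Sik1 in replicates 1 to 3 alone and -0.38 and -0.35 in replicates 4 to 6 alone. Per2 has no value without the dimmest 40% of probe sets. Members called numbered 0 in replicates 4 to 6 alone and 1 to 3 without each array in turn. Over all probe sets, 1238 were lower and 1329 higher, against 601 and 539 in replicates 1 to 3 alone, 738 and 720 in replicates 4 to 6 alone, 773 to 1303 and 740 to 1531 without each array, 1081 and 1765 with array medians subtracted, and 2099 higher with the set term. The difference between the sets in the change was called for 30 probe sets, for 96 with a trended and robust prior and for 4 to 129 without each array. Without each array it ranged from 1.58 to 1.88 for Per1, 1.498 to 1.86 for Sik1 and -0.18 to 0.67 for Per2, where it turned to -0.18 without irradiated replicate 2 and -0.028 without irradiated replicate 5. The set contrasts were called for 695 to 2103 probe sets among control arrays (1900 with all arrays) and 18 to 507 among irradiated arrays (239 with all arrays). The cause of these shifts was not tested, and the fits of a single set or without an array also held fewer arrays. Of the 4 genes most like each member, 2 of Per1, 2 of Per2 and 2 of Sik1 stayed with the Spearman correlation.

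The replicate numbers did not pair single arrays: deviations of same-numbered irradiated and control arrays correlated at 0.011 to 0.286, and 1 of the 6 irradiated arrays correlated best with its own number. Each irradiated array did correlate best with a control array of its own replicate set. With the means of the sets removed, same-numbered arrays correlated at -0.031 to 0.0057. The replicate sets were thus shared by irradiated and control arrays, and the labels do not say what separates them. The replicate block gave 1350 lower and 1451 higher probe sets, kept all 3 members called and left the change of Per1 at -1.23.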
